A study of Rattus norvegicus with 2 samples.

Results

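Circular RNAs (circRNAs) of Atrnl1, the gene for attractin-like 1, were examined in rat spinal cord after tumour-cell injection into bone. They were taken as every circRNA whose gene field in the deposited table names Atrnl1, which gave 21 of 11599 circRNAs. The gene was chosen by its number of listed circRNAs in these libraries, so that number is a description and carries no test. Earlier results of these data were known when it was chosen, so its ratios are descriptions as well. Both libraries came from spinal cord at 21 days after surgery, and each group is said to comprise 3 animals. In the bone cancer pain (BCP) group, live Walker256 cells, a rat mammary carcinoma line grown as ascites in SD rats, were injected into the bone marrow of the tibia. The sham group had the same operation with boiled Walker256 cells, so both groups received tumour-cell material. RNA of both groups was depleted of ribosomal RNA and digested with RNase R, an enzyme that degrades linear RNA. With 1 library per group, differences have no replicate check, and what is compared is these libraries, not the conditions. The labels do not state whether animals were pooled, nor their age, sex or strain. The source label of the samples reads Walker256, whereas their tissue label names spinal cord, which was followed.

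A circRNA forms when the spliceosome joins a downstream splice site back to an upstream one, which leaves a closed molecule and a back-splice junction that linear RNA lacks. Long genes active in neurons often give several circRNAs, because different pairs of splice sites can be joined. Attractin-like 1 is a single-pass membrane protein with CUB, kelch, lectin-like and EGF-like domains outside the cell. It is the paralogue of attractin, the product of the mouse mahogany gene, whose loss in the zitter rat leads to hypomyelination and vacuoles in the central nervous system. In the mouse, its cytoplasmic tail binds the melanocortin 4 receptor.

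The 21 circRNAs lay within 192.6 kb of chromosome 1 (278580846 to 278773472, build rn6), and no other listed circRNA overlapped that interval. Positions are given below as kb from the leftmost start, so that the circRNA from 278698312 to 278749829 is the one from 117.5 to 169.0 kb. The table gives no strand, and no exon or intron annotation of this build was used. The gene field held Atrnl1 alone for 18 circRNAs. The other 3, which all end at 192.6 kb, also carry the small RNA family names U6, 7SK, SNORA44 and SNORA19. Genomic spans went from 3555 to 168984 bp with a median of 52734 bp. Over all circRNAs of the table the median span was 9708 bp, with quartiles of 2938 and 24997 bp. Spans run from start to end in the genome and are not the lengths of the molecules, since introns inside them may be removed.

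Summed over the gene, the BCP library held 298 Atrnl1 reads of 78836 back-splice reads and the sham library 583 of 113033. This was 0.378% of BCP reads (exact binomial 95% interval 0.336 to 0.423) and 0.516% of sham reads (0.475 to 0.559), or 3780 and 5158 counts per 1000000 circRNA reads (CPM) in BCP and sham. The ratio of BCP over sham was 0.733, with a 95% conditional exact interval of 0.635 to 0.844, or 1.36-fold lower in BCP. All intervals cover the counting error of independent reads only, and without molecular identifiers several reads can come from 1 molecule. The sum did not reach the size rule used throughout, which asks for 10 or more reads in the libraries together, a 2-fold or larger ratio and an interval clear of 1. By that rule, 8.82% of 2143 host genes with enough reads stood higher in BCP and 8.49% stood lower. The direction did not rest on a single circRNA: leaving out each of the 21 in turn gave ratios of 0.698 to 0.778.

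The summed ratio stood low, but well inside the spread of other host genes. Among 349 host genes with at least 100 reads, the median log2 ratio was -0.01, and the middle 90% lay between -0.75 and 0.83. Atrnl1 had -0.45, and 57 of these hosts (16.3%) were lower still. Intervals wholly below 1, as for Atrnl1, were found for 17.5% of them, and intervals wholly above 1 for 12.9%. In bulk tissue, fewer cells of a type and less RNA per cell cannot be told apart.

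**Figure D1:**
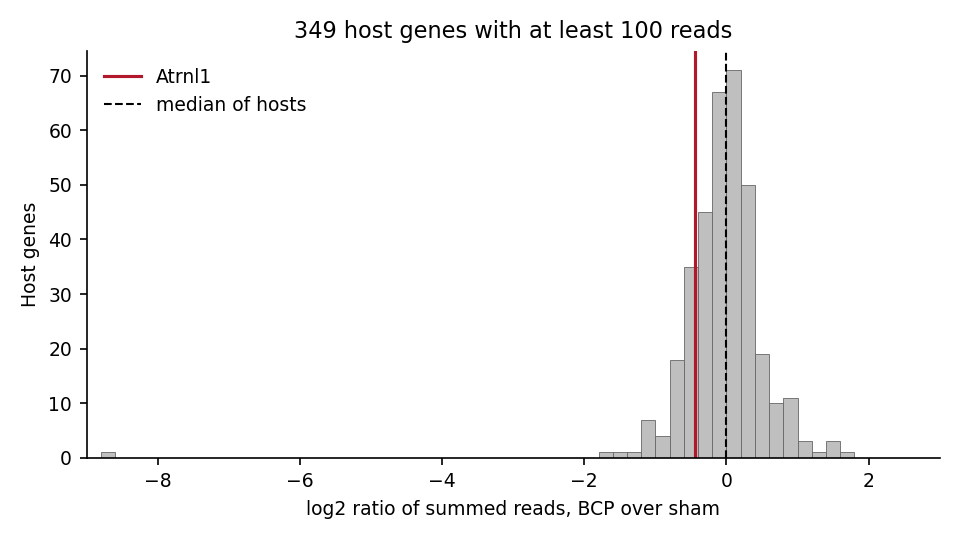
Histogram of the log2 ratio of summed back-splice reads, BCP over sham, for 349 host genes with at least 100 reads over both libraries (x axis, log2 ratio; y axis, number of host genes). The solid line marks Atrnl1 at -0.45, left of the dashed median of -0.01 and within the main body of hosts.

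Many isoforms with no single dominant one made up the Atrnl1 signal. The most abundant, from 117.5 to 169.0 kb (278698312 to 278749829), had 71 reads in BCP and 149 in sham. It took 23.8% of Atrnl1 reads in BCP (19.1 to 29.1) and 25.6% in sham (22.1 to 29.3). Its share was thus nearly equal in the libraries, although its level was lower in BCP. The next, from 0.0 to 40.0 kb (278580846 to 278620822), had 49 reads in BCP and 124 in sham. It held 16.4% of Atrnl1 reads in BCP (12.4 to 21.1) and 21.3% in sham (18.0 to 24.8). Together the 5 most abundant circRNAs held 70.5% of BCP reads (64.9 to 75.6) and 77.0% of sham reads (73.4 to 80.4).

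**Figure D2:**
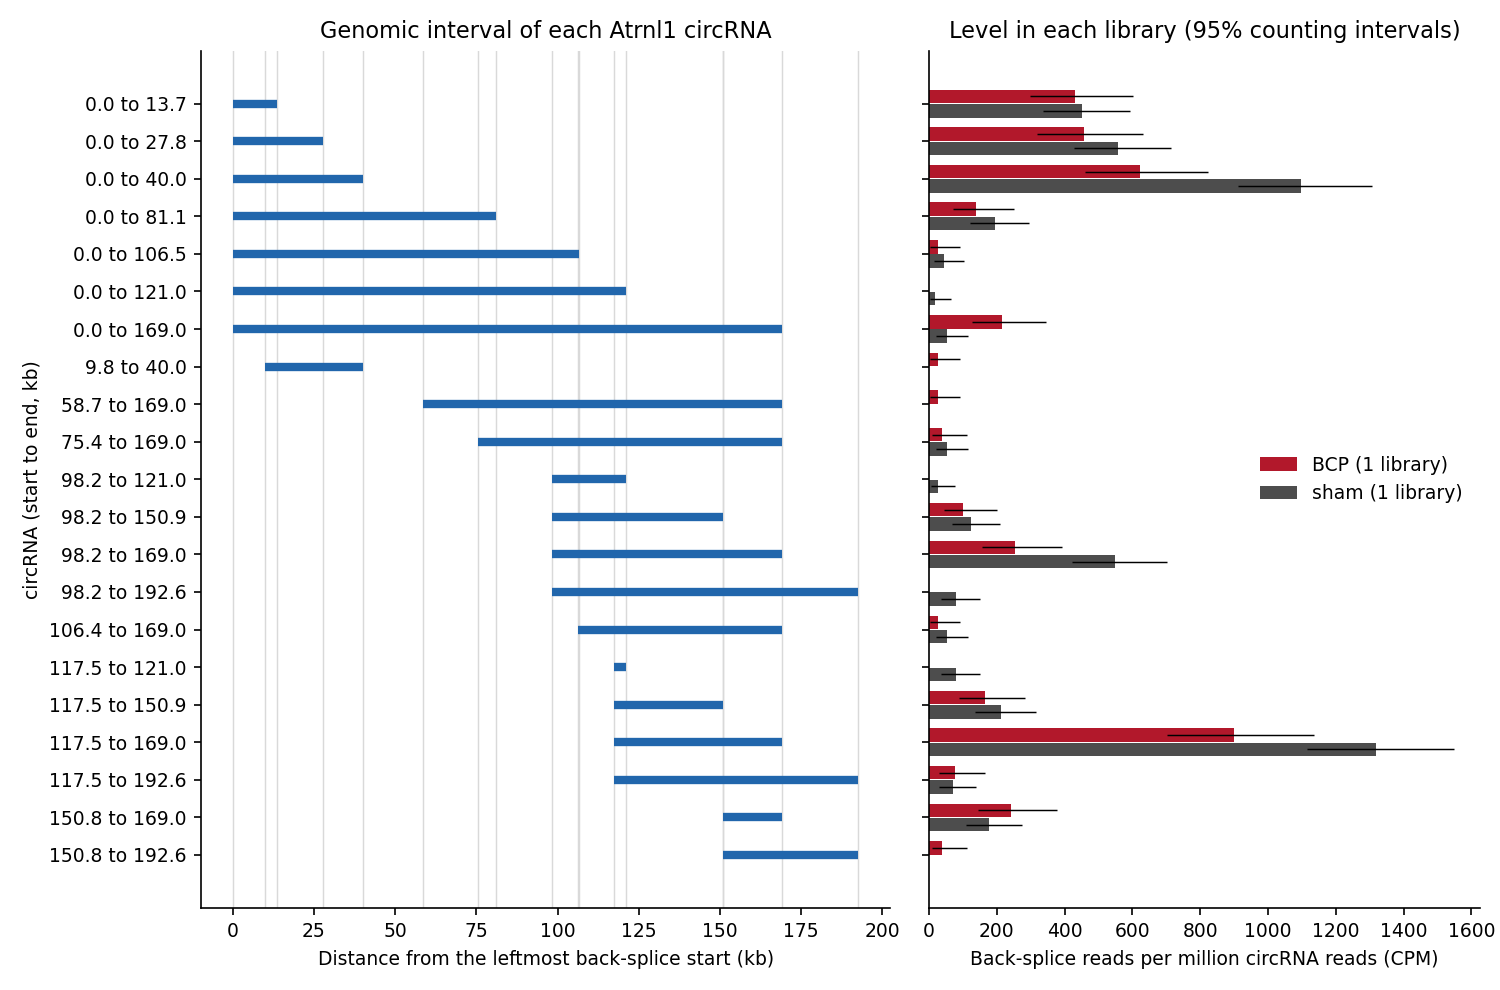
Left, genomic interval of each of the 21 Atrnl1 circRNAs in kb from the leftmost back-splice start, with grey lines at every start and end. Right, level of each in the BCP library (red, upper bar) and the sham library (grey, lower bar) in CPM, with exact 95% counting intervals. The circRNA from 117.5 to 169.0 kb is the highest in both libraries, at 901 CPM in BCP and 1318 CPM in sham, and the one from 0.0 to 169.0 kb is higher in BCP.

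The circRNA from 0.0 to 27.8 kb had 36 reads in BCP and 63 in sham. The one from 98.2 to 169.0 kb (278679022 to 278749829) had 20 and 62, and the one from 0.0 to 13.7 kb had 34 and 51. The first and second places were the same in both libraries. In BCP, the neighbouring levels from 0.0 to 13.7 kb (431 CPM, 299 to 603) and from 0.0 to 27.8 kb (457 CPM, 320 to 632) had overlapping intervals.

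Of the 21 circRNAs, 11 had the 10 reads needed for the size rule. All 11 were listed in both libraries, as were 92.6% of all circRNAs of the table with enough reads. The rule called 1 higher and 1 lower in BCP, and the other 9 met neither side. Over the whole table, 7.82% of 3502 circRNAs with enough reads were higher and 7.34% lower, so 1 of 11 on each side is close to the background. Ratios were below 1 for 8 of the 11 and above 1 for 3, whereas 49.3% of all circRNAs with enough reads had a ratio below 1. The median log2 ratio was -0.28 for the 11 and 0.02 for all 3502.

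The circRNA that was higher in BCP ran from 0.0 to 169.0 kb (278580846 to 278749829), the longest span of the gene. It had 17 reads in BCP and 6 in sham, or 216 CPM (126 to 345) and 53.1 CPM (19.5 to 116), a ratio of 4.06 (1.53 to 12.6). It took 5.70% of Atrnl1 reads in BCP (3.36 to 8.98) and 1.03% in sham (0.379 to 2.23), so its share within the gene was 5.54 times as large in BCP (2.09 to 17.2). The circRNA joins the start and the end that each serve 7 Atrnl1 circRNAs, more than any other site of the gene. Of 81 circRNAs of at least 100 kb with enough reads in the table, 7.41% were higher in BCP and 17.3% lower.

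The circRNA that was lower in BCP ran from 98.2 to 169.0 kb. Its 20 reads in BCP and 62 in sham correspond to 254 CPM (155 to 392) and 549 CPM (421 to 703), 2.16-fold lower in BCP (1.29 to 3.78). The 2 most abundant circRNAs had intervals wholly below 1 without reaching 2-fold. The one from 0.0 to 40.0 kb was 1.76-fold lower (1.26 to 2.51), and the one from 117.5 to 169.0 kb was 1.46-fold lower (1.10 to 1.97). Intervals wholly below 1 were thus found for 3 of 11 Atrnl1 circRNAs, against 9.17% of the 3502, and wholly above 1 for 1 of 11, against 9.11%. Intervals narrow as reads increase, so these shares are not matched for depth. In the order given, the 3 had 82, 173 and 220 reads over both libraries, whereas 10 sufficed for the 3502.

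The other 7 had intervals that included 1. The circRNA from 150.8 to 169.0 kb had 19 reads in BCP and 20 in sham, a ratio of 1.36 (0.688 to 2.69). That from 117.5 to 192.6 kb had 6 and 8 reads, a ratio of 1.08 (0.308 to 3.53). Ratios slightly below 1 were found for the circRNAs from 0.0 to 13.7 kb (0.956, 0.6005 to 1.504) and from 0.0 to 27.8 kb (0.819, 0.528 to 1.253). The remaining 3, from 98.2 to 150.9, from 117.5 to 150.9 and from 0.0 to 81.1 kb, had 8, 13 and 11 reads in BCP, against 14, 24 and 22 in sham, with ratios between 0.717 and 0.819. With so few reads a 2-fold difference in either direction could not be told from none for 5 of these, as their intervals reached below 0.5 or above 2.

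**Figure D3:**
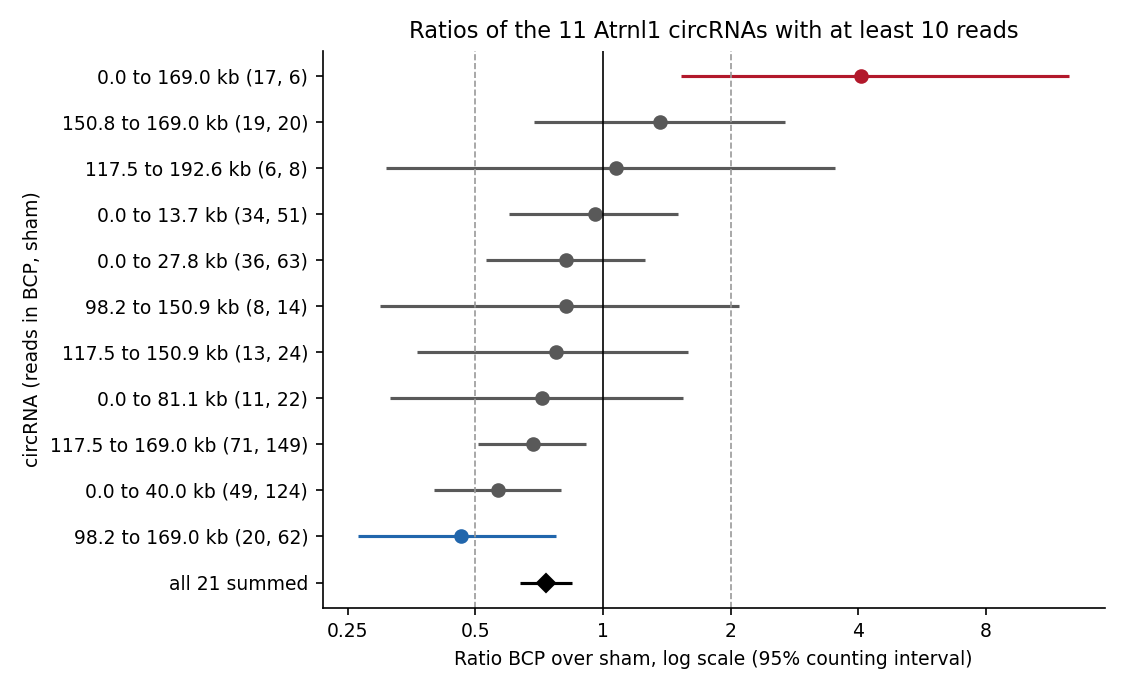
Ratio of BCP over sham for the 11 Atrnl1 circRNAs with 10 or more reads in all and for the sum of all 21 (x axis, log scale; points, ratios; lines, 95% counting intervals; dashed lines, 2-fold in either direction; reads in BCP and sham in brackets). The circRNA from 0.0 to 169.0 kb (red) is the 1 higher by the size rule, that from 98.2 to 169.0 kb (blue) the 1 lower, and the sum lies at 0.733.

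The 10 circRNAs under 10 reads held 14 reads in BCP and 40 in sham. Of these, 3 were listed in BCP alone, with 2 reads from 9.8 to 40.0 kb, 2 from 58.7 to 169.0 kb and 3 from 150.8 to 192.6 kb. Another 4 were listed in sham alone, with 9 reads from 98.2 to 192.6 kb, 9 from 117.5 to 121.0 kb, 3 from 98.2 to 121.0 kb and 2 from 0.0 to 121.0 kb. The last 3 were listed in both: from 0.0 to 106.5 kb with 2 reads in BCP and 5 in sham, from 75.4 to 169.0 kb with 3 and 6, and from 106.4 to 169.0 kb with 2 and 6. The smallest count above 0 anywhere in the table is 2, so 1 read of any circRNA may have gone unlisted.

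In all, 17 Atrnl1 circRNAs were listed in BCP and 18 in sham, and 14 in both (66.7%, against 41.2% over the table). Sham was 1.43 times as deep. At the depth of BCP, exact rarefaction with the same minimum of 2 reads gave an expected 17.2 Atrnl1 circRNAs for sham, so the number of isoforms listed hardly differed between the libraries. Across the 21 circRNAs, reads in BCP and sham had a Pearson r of 0.956 and a Spearman rho of 0.779, a description over isoforms that share a gene and the same 2 libraries.

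The isoforms shared splice sites, as they did in other host genes. The 21 circRNAs used 8 starts and 9 ends. Among 37 host genes with at least 15 circRNAs, the medians were 9 starts and 9 ends, for a median of 17 circRNAs. The most circRNAs at 1 start and at 1 end were 7 and 7 for Atrnl1, beside host medians of 4 and 4. Over both libraries, the start with most reads took 47.9% of Atrnl1 reads and the end 43.5%, beside host medians of 42.5% and 38.1%. The start at 0.0 kb (278580846) served 7 circRNAs, which held 149 reads in BCP and 273 in sham, or 50% (44.2 to 55.8) and 46.8% (42.7 to 50.97) of Atrnl1 reads. The end at 169.0 kb (278749829) also served 7, with 134 and 249 reads, or 45.0% (39.2 to 50.8) of BCP reads and 42.7% (38.7 to 46.8) of sham reads. The 13 circRNAs that use at least 1 of these sites held 89.3% of Atrnl1 reads in BCP (85.2 to 92.5) and 88.5% in sham (85.6 to 91.0).

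These circRNAs formed a set that shares the start at 0.0 kb and a set that shares the end at 169.0 kb. The sets overlap on the chromosome, and only the circRNA from 0.0 to 169.0 kb belongs to both. The 6 others that begin at 0.0 kb had 132 reads in BCP and 267 in sham, 1.41-fold lower in BCP (1.14 to 1.75). The 6 others that end at 169.0 kb had 117 and 243 reads, 1.45-fold lower (1.16 to 1.82). The 8 circRNAs with neither site had 32 and 67 reads, a ratio of 0.685 with an interval that included 1 (0.435 to 1.06). Ratios of these 3 sets lay between 0.685 and 0.709, while the 1 circRNA with both sites had 4.06. That is the circRNA already called higher, so its contrast with the sets is not a separate result.

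**Figure D4:**
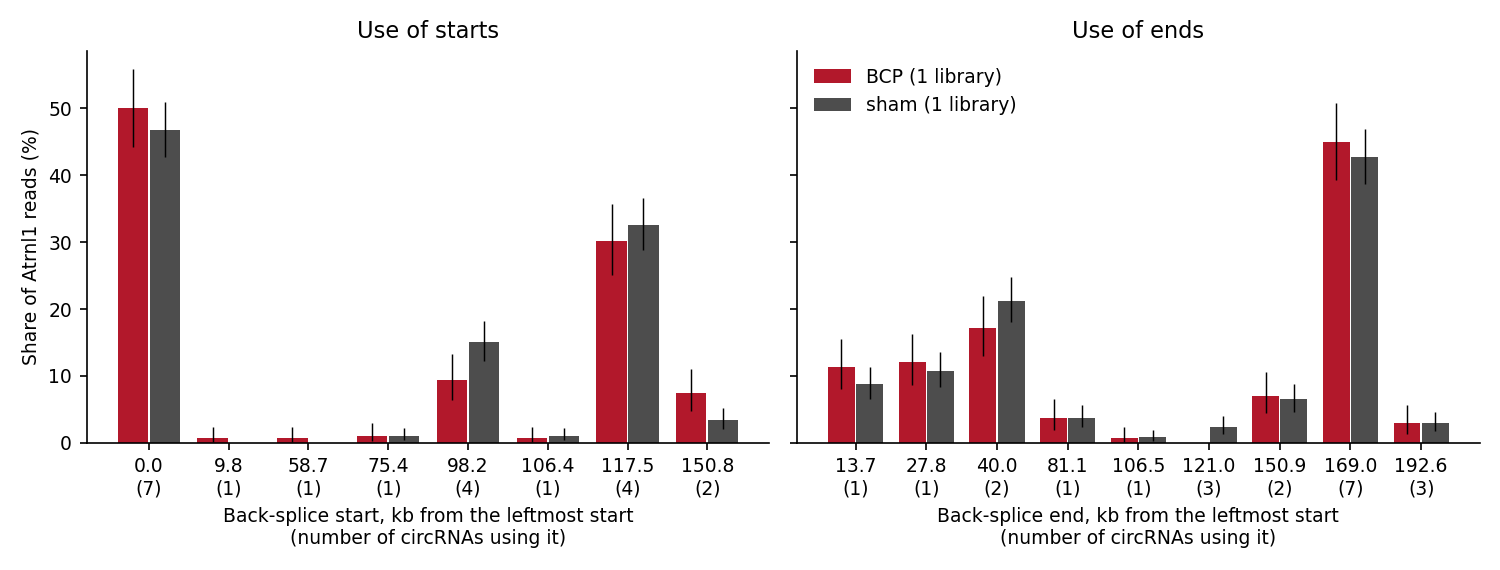
Share of Atrnl1 back-splice reads at each start (left) and each end (right), in percent, in the BCP library (red, left bar) and the sham library (grey, right bar), with exact binomial 95% intervals. Sites are in kb from the leftmost start, with the number of circRNAs that use each in brackets. The start at 0.0 kb and the end at 169.0 kb take 50% and 45.0% of reads in BCP, and the end at 121.0 kb has no bar in BCP.

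Beyond these, the starts at 98.2 and 117.5 kb served 4 circRNAs each. Reads from the start at 98.2 kb numbered 28 in BCP and 88 in sham, 2.19-fold lower in BCP (1.42 to 3.48), which met the size rule. Of these, 20 and 62 were reads of the circRNA from 98.2 to 169.0 kb already called lower, so the 2 calls are not separate results. Over all starts of the table with enough reads, 8.30% were higher and 7.78% lower. The share of this start within the gene was 9.40% in BCP (6.33 to 13.3) and 15.1% in sham (12.3 to 18.3). From the start at 117.5 kb came 90 and 190 reads, 1.47-fold lower (1.14 to 1.91). The start at 150.8 kb, with 22 reads in BCP and 20 in sham, took 7.38% of BCP reads (4.68 to 10.96) and 3.43% of sham reads (2.11 to 5.25).

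The end at 121.0 kb (278701866) was used by 3 circRNAs, which had 14 reads in sham and were all listed at 0 in BCP. The summed reads met the size rule as lower, as did 8.59% of all ends with enough reads, while 8.25% were higher. That call rests on the read minimum of the table. With 1 unlisted read allowed for each of the 3 in BCP, the ratio was 0.307 (0.0566 to 1.10) and the rule was not met. These sites were singled out after their values were seen.

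Some starts and ends lay close together. The start at 150.8 kb (278731694) and the end at 150.9 kb (278731755) bound 62 bp, and each served 2 circRNAs. The start at 106.4 kb (278687271) and the end at 106.5 kb (278687323) bound 53 bp, and each served 1. Such a short stretch was therefore the left edge of some circRNAs and the right edge of others. The shortest circRNA, of 3555 bp from 117.5 to 121.0 kb, was listed at 0 in BCP with 9 reads in sham.

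Atrnl1 was set beside the other host genes among the 37 with at least 15 circRNAs, and its most abundant circRNA took a smaller share than the median host's. Only Rims2 (48), Nupr1 (24) and Stk39 (24) had more circRNAs, and Ttll5 also had 21. The share of reads on the most abundant circRNA ranked 27 of 37 in BCP and 22 of 37 in sham, where the medians of these hosts were 32.8% and 28.6%. Starts of Atrnl1 served 2.62 circRNAs each and ends 2.33, ranks 8 and 9 of 37. Its 14 circRNAs listed in both libraries ranked 3 of 37 as a share of those listed. These ranks are descriptions that do not allow for the number of reads, and none was tested.

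Stk39 encodes a kinase that regulates cation-chloride cotransporters. Its 24 circRNAs lay within 195.5 kb and used 9 starts and 8 ends, and 18 of them were listed in both libraries. Its most abundant circRNA took 43.5% of its reads in BCP and 44.5% in sham. Its sum had a ratio of 1.00 (0.902 to 1.12), and 0 of its 15 circRNAs with enough reads met the size rule in either direction. For Rims2, an active zone gene, the summed ratio was 0.894 (0.802 to 0.996), and for Ttll5, which encodes a tubulin glutamylase, 0.776 (0.611 to 0.983). The circRNAs given to Nupr1 spread over 1012 kb, so that host name is doubtful.

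**Figure D5:**
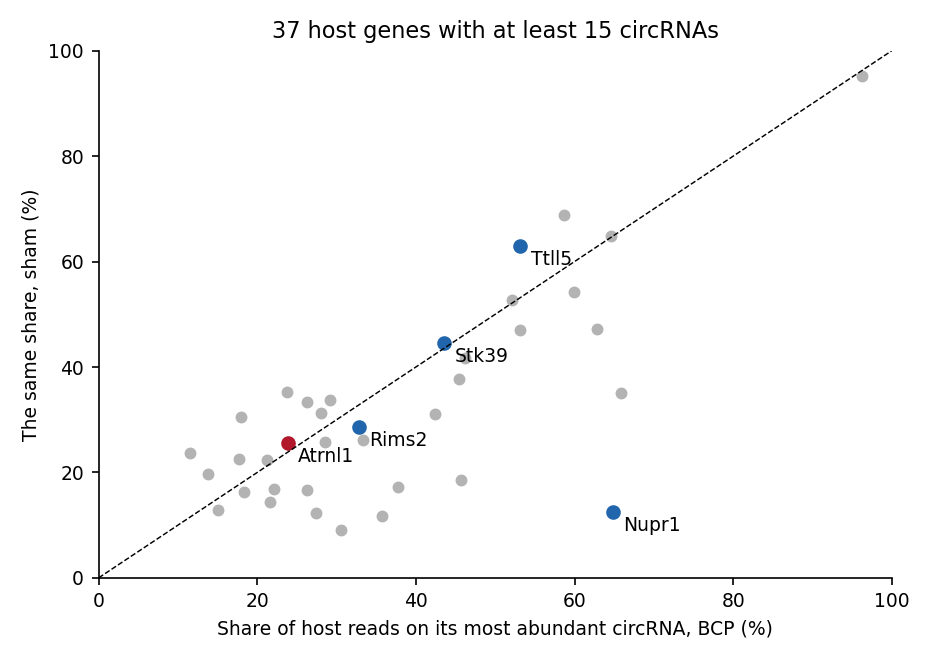
Share of a host gene's back-splice reads on its most abundant circRNA in the BCP library (x axis, percent) and in the sham library (y axis, percent) for 37 host genes with at least 15 circRNAs. The dashed line marks equal shares. Atrnl1 (red) lies near the line at 23.8% in BCP and 25.6% in sham, below Stk39 and Ttll5.

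Among 122 other hosts with at least 10 circRNAs, those with a summed log2 ratio nearest to that of Atrnl1 were Adgrb3, Anks1b and Ncam2. Adgrb3, an adhesion receptor gene of synapses, had 84 reads in BCP and 163 in sham, a ratio of 0.739 (0.561 to 0.967). Anks1b, a gene for a postsynaptic protein, had 275 and 526 reads, a ratio of 0.7496 (0.645 to 0.869). Ncam2, a neural cell adhesion gene, had 85 and 173 reads, a ratio of 0.704 (0.537 to 0.918). Likeness here is the difference in log2 ratio over 2 libraries, which was 0.01, 0.03 and 0.05 for these hosts in turn.

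Genes related to attractin-like 1 or to melanocortin signalling gave few circRNAs. Of 20 such genes, 15 had none listed, among them the paralogue Atrn, the receptor genes Mc1r, Mc3r and Mc4r, and the ligand genes Pomc, Agrp and Asip. The other 5 hosted 12 circRNAs, 4 of which had enough reads: the rule called 1 higher and 0 lower in BCP, beside 7.82% and 7.34% over the whole table. The median log2 ratio of these 4 was 0.71, against 0.02 over all 3502. Summed, the 12 circRNAs had 59 reads in BCP and 64 in sham. That was a ratio of 1.32 with an interval that included 1 (0.912 to 1.91).

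The 1 that was higher came from Gnas, the gene for the stimulatory G protein subunit that couples melanocortin receptors to adenylyl cyclase, with 21 reads in BCP and 12 in sham (2.51-fold, 1.18 to 5.59). Adcy9, an adenylyl cyclase gene, had 7 and 4 reads. Ntrk2, the gene for the receptor of brain-derived neurotrophic factor, had 27 reads in BCP and 46 in sham over 8 circRNAs, a ratio of 0.842 (0.503 to 1.38). Mgrn1, whose product is a ubiquitin ligase that acts with attractin in the mouse, had 2 reads in each library.

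On chromosome 1 around Atrnl1, the summed ratio of other circRNAs had an interval that included 1 and lay above that of Atrnl1. Within 5 Mb on either side, 40 circRNAs without an Atrnl1 name had 251 reads in BCP and 313 in sham, a ratio of 1.15 (0.970 to 1.36). Of 17 with enough reads, 3 were higher and 1 was lower in BCP, with a median log2 ratio of 0.40, where the whole table had 7.82% higher and 7.34% lower. Trub1, the nearest listed host on the left, had 8 and 13 reads, a ratio of 0.882 (0.317 to 2.30). Sums met the size rule as higher, as did 8.82% of all host sums with enough reads, for Nhlrc2 (24 reads in BCP and 9 in sham, 3.82-fold, 1.72 to 9.35) and Pdcd4 (19 and 11, 2.48-fold, 1.12 to 5.76). Vti1a, a vesicle SNARE gene, had 60 and 107 reads, a ratio of 0.804 (0.576 to 1.11). Ablim1 had 29 and 26 reads, Zdhhc6 32 and 49, Add3 8 and 25, Cacul1 11 and 12, Pdzd8 9 and 11, Xpnpep1 7 and 6 and Eif3a 2 and 8, and none of these met the rule.

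Reads of host genes that mark cell types also differed between the libraries. Neuronal marker genes hosted 76 circRNAs from 11 of 12 genes, with 10845 CPM in BCP and 13209 CPM in sham, a ratio of 0.821 (0.754 to 0.894). Most of these reads came from Rims2 (548 in BCP and 879 in sham), Rims1 (123 and 281) and Elavl3 (119 and 246). Syt1 went the other way and met the size rule as higher (10 and 4 reads, 3.58-fold, 1.03 to 15.7), and Rbfox3 had 15 and 11 reads (1.96, 0.839 to 4.71). Of 38 neuronal circRNAs with enough reads, 3 were higher and 4 lower in BCP, near the 7.82% and 7.34% of the whole table, and Elavl4 had none listed. Microglia and macrophage genes had 55 reads in BCP and 13 in sham (6.07-fold, 3.27 to 12.1). The BCP reads came from 1 circRNA each of Ikzf1 (43 reads in BCP and 11 in sham) and Dock8 (12 and 0). Ptprc went the other way, with 0 and 2 reads. The other 6 of the 9 genes, among them Csf1r, Cx3cr1, Aif1, Itgam and P2ry12, had none listed.

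Among oligodendrocyte genes, the myelin gene Mbp had 36 reads in BCP and 6 in sham over 4 circRNAs (8.60-fold, 3.59 to 24.98). Mog was listed at 0 in BCP with 3 reads in sham, and Mobp, Mag, Cnp, Myrf and Mal had none. Astrocyte genes had 3 and 5 reads from Slc1a2 alone, and Gfap, Aqp4, Slc1a3, Gja1 and Aldh1l1 had none. Skeletal muscle (6 genes) and epithelial tumour cell genes (5 genes) had 0 circRNAs in either library. Of these lists, the neuronal sum lay on the same side as the Atrnl1 sum, and the reads of Ikzf1, Dock8 and Mbp on the other. With most genes of the microglia and macrophage list not listed, the reads of Ikzf1 and Dock8 do not stand for that cell type. Their part in the Atrnl1 ratio was not tested.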

How the data were processed

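Back-splice junction reads of circRNAs were taken as the authors deposited them, as 1 raw count per circRNA and library. The deposited columns headed TPM are CPM: in BCP (7375 circRNAs) and sham (9003) every value above 0 is the count over its column total per 1000000, to within 0.001, and 0 is written as 0.001. Per the submitters' processing notes, CASAVA 1.8, BWA and build rn6 were used. No circRNA caller, annotation or read minimum is given in the sources used here. Per the labels' protocols, RNase R (16 units, 15 min) preceded strand-marked, randomly primed libraries.

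From the counts, ratios were taken after scaling to the totals (78836 reads in BCP, 113033 in sham), with conditional exact binomial intervals of 95%. Log2 ratios add 0.5 reads. A single name left after dropping small RNA families and 8 names that spread over 3 Mb or several chromosomes was taken as the host (3865 hosts). Name rules were set with the file known. Every Atrnl1 circRNA was taken in, and other hosts were named from the lists, the neighbourhood, the 4 others with most circRNAs and the 3 nearest ratios. The members and lists were chosen with earlier results of these data known. With 1 library per group no test across replicates could be made. The size rule was checked on simulated counts, and the other steps were not. Alternatives used DESeq2 1.42.0 and edgeR 4.0.16 for scaling factors only, other minimums, ratios and pseudocounts, and subsets of circRNAs. Intervals used scipy 1.17.1. No genome of the build of the files was used, so no sequence is shown. Some items that the lists take in are not reported here.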

Additional observations from a re-analysis of the deposited data

How the results depend on the processing

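Scaling by median-of-ratios and by TMM shifted all log2 ratios by -0.10 and -0.12, and that of the Atrnl1 sum became -0.55 and -0.56. Over all settings tried for the sum, the log2 ratio stayed between -0.56 and -0.36, below the size rule. The Atrnl1 circRNAs lower in BCP numbered 3 with no read minimum and 2 with a ratio of at least 1.5-fold, where the circRNA from 0.0 to 40.0 kb was added, against 1 in the report. With a minimum of 20 reads, 1 Atrnl1 splice site in place of 2 was lower, and 1 circRNA of the neighbourhood in place of 3 was higher. With no read minimum, 1 circRNA of the melanocortin list was lower. The other 66 recomputed summary values kept their direction and their side of the rule, or stayed within 1.5 times as counts. Leaving out the most abundant circRNA, circRNAs listed in 1 library or those with further names was among these. The settings without each circRNA in turn and with unlisted reads were chosen after seeing the data. No paired analysis was possible because each group has 1 library. Depth limits single circRNAs most: most Atrnl1 isoforms have under 40 reads in BCP and sham together.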
